A study of Mus musculus with 4 samples.

Results

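The expression of 9 genes of the hypertrophic chondrocyte, Col10a1, Ihh, Pth1r, Pthlh, Alpl, Ibsp, Spp1, Panx3 and Mef2c, was examined in young and adult mouse articular cartilage with and without injury. They were taken by gene symbol from a table of 24532 genes, and all 9 were found in it. The rule goes by symbol and has no threshold on a measured value.

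Cartilage that is replaced by bone passes through a hypertrophic stage, in which chondrocytes enlarge, stop dividing, secrete type X collagen (Col10a1) and prepare their matrix for mineral. In the growth plate the pace of this step is set by a loop in which Indian hedgehog (Ihh), secreted by prehypertrophic cells, maintains parathyroid hormone-related protein (Pthlh), which acts through its receptor Pth1r to delay hypertrophy. Permanent articular cartilage normally stays out of this program apart from its calcified deep layer, next to the bone, and hypertrophic genes are often measured in osteoarthritis.

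RNA sequencing of poly-A selected RNA was done in 4 groups of wild-type C57BL/6 mice, namely sham-operated (sham) and injured cartilage of young and of adult mice. Each group was 1 library from pooled cartilage, 5 mice for a control pool and 10 for an injured pool, so that no difference between groups has a replicate check and no p-value or standard deviation can be given. The young mice were 3 weeks old. The labels give the adult mice as 12 weeks old in one field and 14 in another, and the methods give 10 weeks. Tissue was taken 3 days after surgery, except that the label of the adult sham library gives days 3 to 14. The labels name the operation as DMM, destabilization of the medial meniscus, while the methods of the study describe a full-thickness defect of the femoral groove made with a needle. Control groups are labelled sham, and the methods also call their mice uninjured. No mutant, transgene or drug is named for any of the 4 groups.

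Values were FPKM, in which the fragments of a gene are scaled by transcript length and library size, and which can be compared between genes of a library. Between libraries they are relative values that depend on the scaling, so other scalings were tried. The FPKM of all genes summed to between 469939 and 533468 per library. The number of fragments is not given in the sources used here, so no counting error is printed. The labels call the cells chondrocytes, and all 14 genes of a chondrocyte marker list were at 1 FPKM or more in every library, type II collagen (Col2a1) at 9349, 7903, 3173 and 3750 FPKM in young sham and injured and adult sham and injured cartilage. The geometric mean of these 14 genes was 863, 736, 202 and 292 FPKM in the same order, in which all series of 4 values below are given. Matn1 (1661, 823, 2.65 and 16.8 FPKM) and Matn3 (392, 356, 2.30 and 1.48) differed most between the ages in this list. Marker genes of macrophages, neutrophils, bone cells, muscle, endothelium, red cells and B cells were measured too, and their summed levels are given beside the genes they move with. In tissue RNA of this kind, a lower level from fewer cells of a type and from less RNA per cell cannot be told apart.

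The 9 genes together held 1326 and 3485 FPKM in young sham and injured and 8161 and 12347 FPKM in adult sham and injured cartilage. That was 0.269%, 0.653%, 1.62% and 2.63% of all FPKM of the respective library. Col10a1, Ibsp and Spp1 alone made up 83.2% of the members' sum in young sham cartilage and between 89.7% and 94.1% in the other libraries. The rest ranged from Alpl, at 676 FPKM in adult sham cartilage, down to Ihh at 1.34 FPKM in young injured cartilage.

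**Figure D1:**
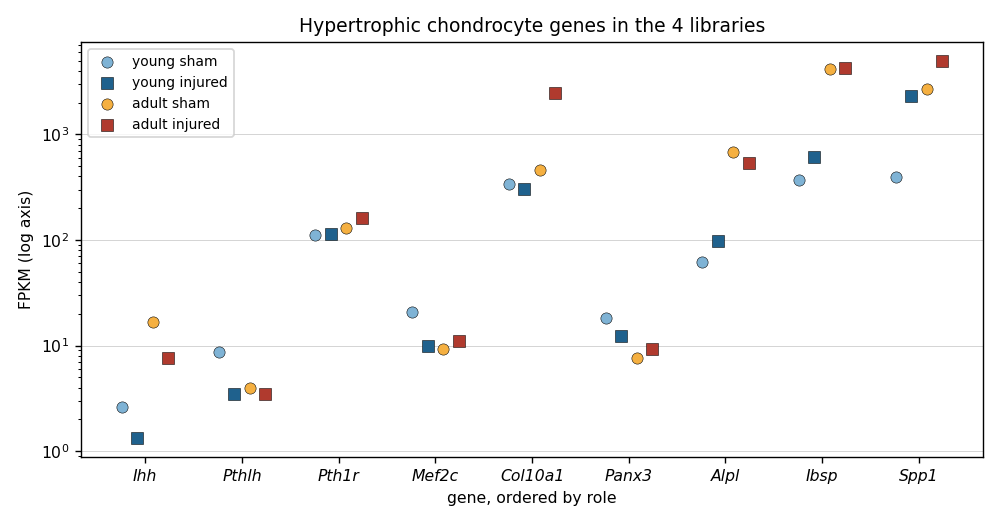
Level of each of the 9 genes in FPKM (log axis), with 1 point per library; circles are sham and squares injured cartilage, blue young and orange or red adult. Adult points of Alpl, Ibsp, Ihh, Spp1, Pth1r and Col10a1 lie above both young points of the same gene. Pth1r spans from 111 to 161 FPKM, and Col10a1 stands apart in adult injured cartilage at 2446 FPKM.

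The order of the genes by level differed between the ages. In young sham cartilage Spp1 (397 FPKM), Ibsp (369) and Col10a1 (338) lay within 1.17-fold of each other at the top, followed by Pth1r at 111 and Alpl at 61.3 FPKM. In adult sham cartilage the order was Ibsp at 4136, Spp1 at 2722, Alpl at 676, Col10a1 at 459 and Pth1r at 130.0 FPKM. In adult injured cartilage Spp1 (4953 FPKM, rank 8 of 24532 genes), Ibsp (4218, rank 10) and Col10a1 (2446, rank 21) were among the most abundant transcripts of the library. With 1 library per group, neighbours in these orders cannot be called different.

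Differences were calculated as log2 ratios of FPKM + 1, and a gene was counted at 2-fold or more on this scale. The added 1 FPKM understates the ratios of low members such as Ihh and Pthlh, and folds in the text are those of the FPKM themselves. The 4 comparisons share libraries, so that their values are set side by side and not correlated. After injury of young cartilage 1 of 9 members was at least 2-fold higher, against 6.43% of the 12904 genes with at least 1 FPKM in either library, and 2 members were lower against 1.78%. After injury of adult cartilage 1 member was higher, against 10.0% of 12495 genes, and 1 was lower against 2.13%. Against young sham, adult sham cartilage had 4 members higher (3.86% of 12546 genes) and 2 lower (15.4%). Between the injured libraries 5 members were higher in the adult (2.55% of 12866 genes) and 0 lower (4.36%).

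The number of members at 2-fold was thus 3 and 2 for injury and 6 and 5 for age, and the difference between these counts was not tested. Their median log2 ratio was −0.16 for young and 0.21 for adult injury, beside −0.02 and 0.26 for all genes. The adult value turned to −0.04 with median-of-ratios scaling, −0.02 with quantile normalization and −0.28 after scaling to the chondrocyte list, and the young one to 0.07 with the last of these. For adult against young cartilage it was 0.44 between the shams and 1.08 between the injured libraries, beside −0.33 and −0.09 for all genes. Median-of-ratios scaling, in which a single factor per library is set by the bulk of the genes, moved the median of all genes from 0.26 to 0.03 for adult injury and from −0.33 to −0.01 between the shams. With it, 6.89% of all genes were at least 2-fold higher and 3.62% lower after adult injury, and the shares between the shams were 7.74% and 8.03%. Directions of single members below are those of the deposited FPKM, and the members whose sign turns under another scaling are named where their values are given.

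The loop of Ihh, Pthlh and Pth1r was followed first. Ihh (chr1:74945315-74951672, minus strand, GRCm38.p6, which is mm10) was at 2.59 and 1.34 FPKM in young sham and injured and at 16.6 and 7.55 FPKM in adult sham and injured cartilage. Both adult values were above both young values, and the injured value was below the sham value at each age. The adult level was 6.42-fold that of the young in sham and 5.62-fold in injured cartilage, with log2 ratios of 2.30 and 1.87. The injured level was 1.93-fold lower in the young (log2 ratio −0.61) and 2.20-fold lower in the adult (−1.04). Bringing all libraries to an equal FPKM sum (TPM) brought the adult injury ratio to just under 2-fold.

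Pthlh (chr6:147252109-147264013, minus strand), the secreted ligand that restrains hypertrophy, was highest in young sham cartilage. It was at 8.69 FPKM in young sham, against 3.49 in young injured and 3.92 and 3.46 in adult sham and injured cartilage, and these last 3 values lay within 1.13-fold of each other. After young injury its level was 2.49-fold lower, a log2 ratio of −1.11, and after adult injury the ratio was −0.14. Between the shams the adult level was 2.21-fold lower as FPKM, and −0.98 on the log2 scale of FPKM + 1 was just short of 2-fold. That last ratio turned to 0.83 when each library was scaled to its chondrocyte marker list, and the ratio between the injured libraries, −0.01, also changed sign. In FPKM, which account for transcript length, the ratio of Ihh to Pthlh was 0.298 and 0.386 in the young and 4.24 and 2.18 in the adult libraries, sham before injured.

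Pth1r (chr9:110722085-110747145, minus strand), the G protein-coupled receptor of Pthlh and of parathyroid hormone, had the smallest span of the 9 genes in the deposited FPKM. Its level was 111 and 114 FPKM in young sham and injured and 130.0 and 161 FPKM in adult sham and injured cartilage, so that the highest was 1.45-fold the lowest. Log2 ratios were 0.04 and 0.31 for young and adult injury and 0.23 and 0.49 for adult against young cartilage, and the injury ratios changed sign with the scaling. After scaling to the chondrocyte list the ratios between the ages were 2.30 and 1.82, above those of Panx3, Pthlh and Mef2c. The ratio of receptor to ligand transcripts, Pth1r to Pthlh, was 12.8 in young sham and 32.7, 33.1 and 46.6 in young injured, adult sham and adult injured cartilage. A list of 12 genes of signaling below the receptor, among them the stimulatory G protein subunit Gnas at 907, 484, 477 and 345 FPKM, had 0 members at 2-fold after young injury. After adult injury 1 of 12 was higher, the protein kinase A catalytic subunit Prkaca with a log2 ratio of 1.22, beside 10.0% of all genes. Between the shams 2 of 12 were lower in the adult, beside 15.4% of all genes, and between the injured libraries 0 differed by 2-fold. Both shares of the list were near those of all genes. After scaling to the chondrocyte list 9 of 12 were higher and 0 lower in the adult between the shams, and 5 of 12 higher between the injured libraries.

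Several genes that carry or report the hedgehog signal were at least 2-fold lower after injury at both ages. The pathway was followed with a list of 11 genes, all at 1 FPKM or more in every library. After young injury 5 of the 11 were at least 2-fold lower and 0 higher, with a median log2 ratio of −0.84. After adult injury 6 of 11 were lower and 0 higher, with a median of −1.02. Between the shams 0 of 11 differed by 2-fold (median −0.14), and between the injured libraries 1 was higher in the adult, the coreceptor Gas1 at 1.27. These counts depended on the scaling. After scaling to the chondrocyte list 10 of 11 were higher in the adult between the shams and 8 of 11 between the injured libraries. The summed level of the list was 438, 168, 462 and 203 FPKM in young sham and injured and adult sham and injured cartilage.

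Gli1, the transcription factor that hedgehog signaling itself induces, was at 37.6, 13.0, 54.5 and 18.9 FPKM in that order, and its injury log2 ratio was −1.47 in the young and −1.48 in the adult. Hhip, a hedgehog-binding inhibitor that is also an induced target, was at 26.5 FPKM in young sham and 2.44 in young injured cartilage, and at 16.1 and 5.24 in the adult pair. The receptor Ptch1, another induced target, had injury log2 ratios of −1.14 in the young and −0.68 in the adult. Gas1 (113, 22.3, 147 and 55.1 FPKM) and the related coreceptor Boc (120.0, 46.9, 72.4 and 28.2) were below their sham level in both injured libraries. The signal transducer Smo reached 2-fold only in the adult comparison, with −0.58 in the young and −1.02 in the adult, and so did Gli2, with −0.46 and −1.41. The coreceptor Cdon stayed short of 2-fold at −0.84 and −0.68. For the kinesin Kif7 and the inhibitor Sufu the adult ratios were above 0, at 0.17 and 0.55. Ihh was also below its sham level in both injured libraries, but it differed 6.42-fold between the shams, where Gli1 had a log2 ratio of 0.52. The ratio of Ihh to Gli1 was 0.0688 and 0.104 in the young and 0.305 and 0.400 in the adult libraries.

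**Figure D2:**
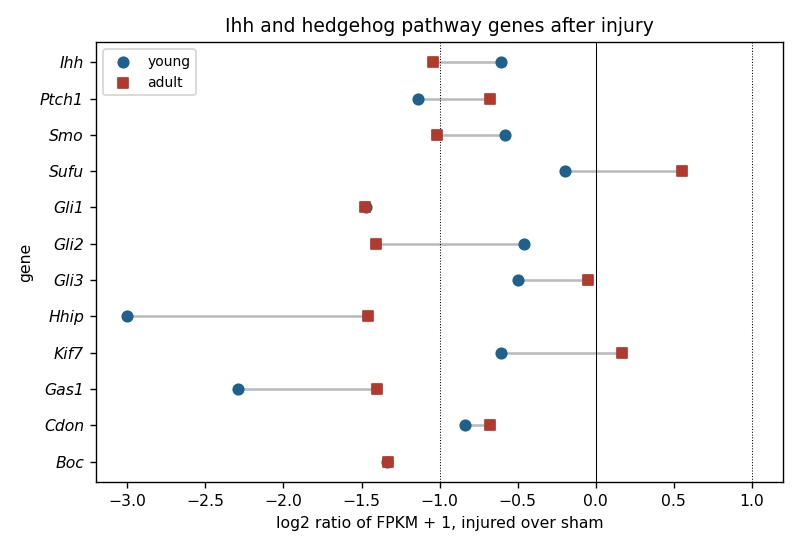
Log2 ratio of FPKM + 1, injured over sham, for Ihh and the 11 hedgehog pathway genes; circles are young and squares adult cartilage, each point compares 1 library with 1 other, and dotted lines mark 2-fold. The points of Gli1 and Boc nearly coincide at the ages, and Hhip reaches −3.00 in the young against −1.46 in the adult.

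Cells of the superficial and resting zones, where Pthlh is known to be made, were checked with 11 marker genes. These were lower after young injury in 6 of 11 and higher in 0, with a median log2 ratio of −1.01. After adult injury 4 were lower and 1 higher. Their summed level was 4345, 2172, 9937 and 5308 FPKM in young sham and injured and adult sham and injured cartilage, with lubricin (Prg4), the boundary lubricant of the joint surface, at 2049, 421, 3565 and 2658. Between the ages 3 were higher and 3 lower in adult sham cartilage, and 4 higher and 2 lower in adult injured cartilage. Their part in the Pthlh and hedgehog values was not tested.

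Mef2c (chr13:83504017-83667079, plus strand), a transcription factor required for chondrocyte hypertrophy and for Col10a1 in the growth plate, was, like Pthlh, highest in young sham cartilage. It was at 20.9 FPKM in young sham, and at 9.83, 9.34 and 11.0 in young injured, adult sham and adult injured cartilage. Young sham stood above the other 3, which lay within 1.18-fold of each other. The level was 2.13-fold lower after young injury, a log2 ratio of −1.02 that became −0.99 with median-of-ratios scaling, and adult injury gave 0.21. Between the shams it was 2.24-fold lower in the adult, a log2 ratio of −1.08 that became −0.72 with median-of-ratios scaling and 0.88 after scaling to the chondrocyte list. The sign of the adult injury ratio also depended on the scaling.

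Mef2c is expressed by muscle, endothelium and B cells too. The summed level of 14 muscle genes was 1077, 868, 2017 and 562 FPKM in young sham and injured and adult sham and injured cartilage, and 10 of the 13 measured were lower after adult injury, 2 of 13 after young injury, with 7 higher in adult sham than in young sham and 1 of 12 lower between the injured libraries. The summed level of 9 B cell genes was 64.3, 93.5, 15.3 and 27.7 FPKM, with 7 of 9 lower in adult sham and 5 of 9 lower in adult injured cartilage than in the young, 0 differing after young injury and 2 higher after adult injury. For 10 endothelial genes it was 19.6, 92.9, 21.3 and 79.1 FPKM, with 8 of 9 measured higher after young injury, 8 of 8 after adult injury and 0 differing between the ages. No gene of the muscle, B cell or endothelial list was listed at 0 in any library. The B cell sum was higher in the young, as Mef2c was in sham cartilage. Between the injured libraries Mef2c was not higher in the young, at 9.83 FPKM against 11.0 in the adult. After young injury Mef2c was lower while the B cell sum was higher. The part of muscle, endothelium and B cells in the Mef2c values was not tested.

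Other transcription factors of hypertrophy were compared as a list of 12. After young injury 1 of 11 measured was lower, Dlx5 with a log2 ratio of −1.25, and 0 were higher. After adult injury 3 of 12 were higher, beside 10.0% of all genes, and 0 lower, namely Foxa2 (2.05), Runx2 (1.21) and Mef2a (1.13). With median-of-ratios scaling Foxa2 (1.83) was the 1 factor still past 2-fold upward, Mef2a was at 0.87, Runx2 fell just under 2-fold, and Foxa3, named after its value was seen, was lower at −1.02. Runx2, the factor that drives both chondrocyte hypertrophy and osteoblast formation, was at 4.11, 4.34, 2.60 and 7.31 FPKM in young sham and injured and adult sham and injured cartilage. Foxa2, a forkhead factor of the same program, was at 13.9, 6.78, 3.00 and 15.5 FPKM, so that its adult injured level lay close to that of young sham. In adult sham cartilage 3 of 12 were lower than in the young, Foxa2 (−1.90), Mef2a (−1.38) and Atf4 (−1.05), beside 15.4% of all genes, and 1 was higher. With median-of-ratios scaling Atf4 was at −0.67. Between the injured libraries 3 were higher in the adult, among them Dlx5 at 2.77, and 0 lower. After scaling to the chondrocyte list 9 of 12 were higher and 0 lower in each of these comparisons. Between the shams Foxa2 was then at −0.11, Mef2a at 0.64 and Atf4 at 1.03.

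The 8 genes of a list that restrains hypertrophy showed 0 differences of 2-fold after injury at either age. After young injury 0 of 8 had a log2 ratio above 0, and the median was −0.70. Sox9, the chondrocyte master regulator, was at 42.3, 25.4, 31.2 and 31.4 FPKM, and the most abundant gene of this list, Fgfr3, at 129, 89.2, 133 and 119 FPKM. In adult sham cartilage 2 of 8 were lower than in the young, namely Sox5 and Sox6, beside 15.4% of all genes. Between the injured libraries 0 differed by 2-fold. After scaling to the chondrocyte list 6 of 8 were higher and 0 lower in the adult between the shams, and 7 of 8 higher between the injured libraries.

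The start regions of the members were read from the RefSeq annotation of GRCm38.p6. Of the 9 genes 8 had a start site listed, with 14 start sites between them, and Panx3 had none. The 250 bases upstream of the start are printed for Col10a1, Ibsp and Spp1, which make up most of the members' sum in every library. Capitals mark TATAAA, the TATA box letters, on either strand, and in Spp1 also TGTGGT, letters of the RUNX binding motif, which appear there on the opposite strand as their reverse complement. Positions are chr10:34389731-34389980, chr5:104299037-104299286 and chr5:104434861-104435110, all on the plus strand.
Col10a1: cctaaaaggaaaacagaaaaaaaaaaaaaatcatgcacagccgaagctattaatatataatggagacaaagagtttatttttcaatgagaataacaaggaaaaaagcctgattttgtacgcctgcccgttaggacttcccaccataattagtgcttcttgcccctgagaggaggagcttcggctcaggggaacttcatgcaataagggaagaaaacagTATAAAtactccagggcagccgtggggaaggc
Ibsp: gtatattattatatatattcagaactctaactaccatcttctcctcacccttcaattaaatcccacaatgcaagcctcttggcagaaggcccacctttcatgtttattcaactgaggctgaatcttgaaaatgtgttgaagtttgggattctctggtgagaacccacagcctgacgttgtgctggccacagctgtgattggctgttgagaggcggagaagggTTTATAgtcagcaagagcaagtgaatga
Spp1: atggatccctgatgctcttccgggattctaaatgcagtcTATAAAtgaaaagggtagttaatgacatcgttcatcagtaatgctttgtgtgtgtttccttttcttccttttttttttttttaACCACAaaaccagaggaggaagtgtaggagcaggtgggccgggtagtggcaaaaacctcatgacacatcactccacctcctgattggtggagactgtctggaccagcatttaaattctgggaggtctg

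The TATA letters began 32 bases upstream of the start in Col10a1, and in Ibsp they stood 28 bases upstream in inverted orientation, an arrangement for which the bone sialoprotein promoter is known. In the first window of Spp1 they lay 211 bases upstream. Of the 14 member windows, 6 held TATAAA on either strand, in 5 genes, beside 12.4% of 32851 windows of the same length in the annotation. The RUNX letters TGTGGT or TGCGGT, on either strand, were in 2 of 14 windows, that of Ihh 45 bases and that of Spp1 128 bases upstream of the start, beside 18.6% of all windows. The MEF2 motif was in 1 window, of Pth1r, beside 2.92%. The AP-1 letters TGACTCA or TGAGTCA and the GLI letters GACCACCCA were in 0 of 14 windows, beside 4.46% and 0.225% of all windows. Windows of 1 gene lie in the same locus, and a match of letters is a description and not a bound site.

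Col10a1 (chr10:34389981-34397085, plus strand), which encodes the collagen that defines the hypertrophic zone, was the member that set adult injured cartilage apart. It was at 338 and 302 FPKM in young sham and injured and at 459 and 2446 FPKM in adult sham and injured cartilage. The other 3 libraries lay within 1.52-fold of each other, and adult injured cartilage was 5.33-fold above adult sham and 8.09-fold above young injured cartilage. On the log2 scale the adult injury ratio was 2.41 and stayed between 1.89 and 2.51 under all 5 scalings. The young injury ratio was −0.16 and turned to 0.07 after scaling to the chondrocyte list. Set against the collagen of resting cartilage in the same library, the ratio of Col10a1 to Col2a1 was 0.0361, 0.0382, 0.145 and 0.652 in young sham and injured and adult sham and injured cartilage. The gene lies wholly within the span of Nt5dc1, which was at 1.78 to 4.42 FPKM, and the libraries were made with a strand-specific kit.

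Genes known from late hypertrophy and mineralization were compared as a list. Of 18 measured, 2 were higher and 1 lower after young injury, with 6 above 0 and a median log2 ratio of −0.17. After adult injury 2 were higher and 1 lower, beside 10.0% and 2.13% of all genes. In that comparison 12 were above 0, and the median was 0.41, beside 0.26 for all genes. The largest ratio in both was that of the collagenase Mmp13, which degrades the hypertrophic matrix, at 25.3, 474, 21.2 and 518 FPKM in young sham and injured and adult sham and injured cartilage. Mmp13 was thus about as high in young as in adult injured cartilage, with injury log2 ratios of 4.17 and 4.55, while Col10a1 was high in the adult library alone. The ratio of Col10a1 to Mmp13 was 13.4 and 0.638 in young sham and injured and 21.7 and 4.72 in adult sham and injured cartilage. The growth factor Bmp6, made by hypertrophic chondrocytes, was lower after injury at both ages, by log2 ratios of −1.76 and −2.17, and was the gene lower in each.

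Between the ages more genes of the late list differed. In adult sham cartilage 4 of 18 were higher and 1 lower than in the young, with a median log2 ratio of 0.41, and in adult injured cartilage 7 were higher and 1 lower, with a median of 0.68. The higher genes included Mepe, at 2.97 and 2.98 in the respective comparisons and the phosphate transporter Slc20a1 at 1.44 and 1.35. The angiogenic factor Vegfa was higher between the injured libraries at 1.94, with 0.90 between the shams. The gene lower between the injured libraries was matrix Gla protein (Mgp), an inhibitor of mineral deposition and the most abundant of the list, at 11420 and 17434 FPKM in young sham and injured and at 6601 and 3371 FPKM in adult sham and injured cartilage.

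Panx3 (chr9:37659902-37669222), which encodes a channel of prehypertrophic chondrocytes and osteoblasts, was among the low members. It was at 18.2 and 12.2 FPKM in young sham and injured and at 7.59 and 9.37 FPKM in adult sham and injured cartilage. Both young values were above both adult values, and the libraries had the same order by Panx3 as by the geometric mean of the chondrocyte list, whose part in these values was not tested. The adult sham level was 2.39-fold lower than that of young sham, a log2 ratio of −1.16, which became −0.80 with median-of-ratios scaling and 0.78 after scaling to the chondrocyte list. The injury ratios were −0.53 in the young and 0.27 in the adult, and the sign of the second depended on the scaling, as did that of the ratio between the injured libraries, −0.35. Of the other pannexins, Panx1 was at 1.44, 2.48, 0.829 and 2.67 FPKM and Panx2 at 1.86, 1.31, 1.28 and 0.733, each below Panx3 in the same library. Panx1 was higher after adult injury by a log2 ratio of 1.01, and neither differed by 2-fold in another comparison.

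Alpl, Ibsp and Spp1, the members that act on mineral, were all much higher in adult than in young sham cartilage. Alpl (chr4:137741731-137796384, minus strand) encodes the tissue-nonspecific alkaline phosphatase, which removes the mineralization inhibitor pyrophosphate. It was at 61.3 and 98.8 FPKM in young sham and injured and at 676 and 537 FPKM in adult sham and injured cartilage. The adult level was 11.0-fold that of the young in sham and 5.43-fold in injured cartilage, with log2 ratios of 3.44 and 2.43. Injury gave 0.68 in the young and −0.33 in the adult, neither of which reached 2-fold.

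Ibsp (chr5:104299287-104311472, plus strand), bone sialoprotein, an acidic matrix protein that can nucleate mineral, was at 369, 605, 4136 and 4218 FPKM in young sham and injured and adult sham and injured cartilage. The adult values were 11.2-fold and 6.97-fold those of the young in sham and injured cartilage. Injury ratios were 0.71 in the young and 0.03 in the adult, and the second changed sign with the scaling. Alpl and Ibsp kept nearly the same proportion, with a ratio of Alpl to Ibsp of 0.166, 0.163, 0.164 and 0.127 over the 4 libraries. The ratio of Col10a1 to Ibsp, in contrast, was 0.916, 0.500, 0.111 and 0.580.

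Spp1 (chr5:104435111-104441053, plus strand), osteopontin, is an acidic matrix protein that inhibits crystal growth and is also secreted by macrophages and osteoclasts. It was the only member at 2-fold or more higher after young injury, at 397 FPKM in young sham and 2338 in young injured cartilage, a 5.89-fold difference and a log2 ratio of 2.56. In the adult it was at 2722 FPKM in sham and 4953 in injured cartilage, a 1.82-fold difference and a log2 ratio of 0.86, which ranged from 0.34 after scaling to the chondrocyte list to 1.29 with quantile normalization. Young sham stood apart below the other 3 libraries, since young injured and adult sham cartilage differed by only 1.16-fold. The adult level was 6.86-fold that of the young in sham and 2.12-fold in injured cartilage. The ratio of Spp1 to Ibsp was 1.08, 3.86, 0.658 and 1.17 in young sham and injured and adult sham and injured cartilage.

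Ibsp and Spp1 belong to a family of acidic bone and tooth matrix proteins whose genes lie side by side on chromosome 5, in the order Dspp, Dmp1, Ibsp, Mepe and Spp1, over 270351 bases. Dspp, a gene of dentin, was listed at 0 in 3 libraries and at 0.00860 FPKM in young sham. Dmp1 and Mepe, made by osteocytes, were at 12.4, 27.4, 37.7 and 59.5 FPKM and at 6.87, 5.58, 60.6 and 50.8 FPKM. In adult against young sham cartilage the 4 detected genes had log2 ratios of 1.53 (Dmp1), 3.48 (Ibsp), 2.97 (Mepe) and 2.78 (Spp1). After young injury they were 1.08, 0.71, −0.26 and 2.56, and after adult injury 0.64, 0.03, −0.25 and 0.86. Between the shams all 4 were above 0, and after injury Mepe was below 0 at both ages.

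Bone-forming cells also make these 3 proteins, and macrophages and osteoclasts make Spp1, so their markers are given here. Of 17 osteoblast and osteocyte genes, 9 were higher and 0 lower in adult than in young sham cartilage (median log2 ratio 1.07), and 5 higher and 0 lower between the injured libraries (0.79). Osteocalcin (Bglap), a product of mature osteoblasts, was at 96.8 and 102 FPKM in the young and 449 and 453 in the adult libraries, and Sost, made by osteocytes, at 0.459, 0.0915, 26.0 and 8.67 FPKM. After injury 5 of 15 measured were higher and 0 lower in the young, and 5 of 17 higher and 2 lower in the adult. The collagen Col1a1 was at 203, 615, 223 and 741 FPKM, differing with injury and little with age. The summed level of this list was 1613, 2095, 2977 and 3157 FPKM, and none of its genes was listed at 0. The ratio of Ibsp to Bglap was 3.81, 5.95, 9.20 and 9.31, and that of Ibsp to Col1a1 was 1.82, 0.984, 18.5 and 5.70. The part of bone cells in the Alpl and Ibsp values was not tested, and the list shares Dmp1, Mepe, Phex and Sp7 with the lists of hypertrophy.

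Macrophage markers were higher after injury at both ages. All 14 were at least 2-fold higher in each injury comparison, with median log2 ratios of 3.29 in the young and 2.21 in the adult, and their summed level was 197, 1989, 332 and 1712 FPKM in young sham and injured and adult sham and injured cartilage. Between the shams 6 of 12 measured were higher in the adult, and between the injured libraries 1 of 14 was lower. Of 11 osteoclast markers, 5 of 9 measured were higher after young and 10 of 10 after adult injury, and 4 of 10 were higher in adult injured than in young injured cartilage, with sums of 286, 729, 365 and 1367 FPKM. Between the shams 0 of 7 osteoclast markers differed by 2-fold. The osteoclast marker Calcr, named here after its values were seen, was between 0.00997 and 0.240 FPKM, while Acp5 was at 122, 306, 179 and 713 FPKM. Relative to lysozyme 2 (Lyz2), the most abundant macrophage marker, Spp1 stood at 2.80, 1.84, 14.9 and 4.54, and relative to Acp5 at 3.24, 7.65, 15.2 and 6.95. Both marker sums were thus higher in the injured library of each age, as Spp1 was. Adult sham cartilage, in contrast, had lower sums than young injured cartilage, 332 against 1989 and 365 against 729 FPKM, but Spp1 at 2722 against 2338 FPKM. The part of macrophages and osteoclasts in the Spp1 values was not tested.

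Neutrophil genes, 11 in number, summed to 1292, 3141, 1705 and 4075 FPKM, with 4 of 11 higher after young and 2 after adult injury, 1 higher between the shams and 2 between the injured libraries. The 9 erythroid genes, mostly globins by level, summed to 9683, 18450.0, 6957 and 3032 FPKM, with 1 higher after young injury, 3 of 8 lower after adult injury, 7 of 9 lower and 1 higher in adult sham, and 9 of 9 lower in adult injured cartilage. Globin genes are near-identical copies between which reads can be split, and a beta globin outside the list, Hbb-b1, named here after its values were seen, had log2 ratios of 11.07 for adult injury and −12.98 between the shams, against −5.09 and 4.75 for Hbb-bs. The erythroid sums and counts are therefore uncertain. Of the 14 chondrocyte genes, 1 was lower and 0 higher after young injury, 5 were higher and 1 lower after adult injury, 10 were lower and 2 higher in adult than in young sham cartilage, and 6 lower and 2 higher between the injured libraries. Their sum was 22561, 19795, 32919 and 19790.3 FPKM, and the matrix protein gene Chad, the highest of them in both adult libraries, was at 2781, 2348, 20538 and 8281 FPKM, against the direction of most of the list between the ages.

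Injury log2 ratios had opposite signs at the ages in 4 of 9 members, beside 42.6% of 13209 genes, a share near that of the members. The adult log2 ratio exceeded the young one by 1 or more in 2 of 9 members, Col10a1 (by 2.57) and Mef2c (by 1.23), beside 6.24% of those genes. It lay 1 or more below the young one in 2 members, Alpl (−1.01) and Spp1 (−1.69), beside 2.26%. These counts depended on the scaling: the first was 1 to 4 and the second 1 to 4 over the 5 scalings, with Col10a1 (1.82 to 2.79) and Spp1 (−2.45 to −1.35) counted in all 5. Mef2c was at 0.95 with median-of-ratios scaling and 0.49 after scaling to the chondrocyte list, Alpl at −0.80 and Pthlh at 1.23 with TPM. For Pthlh, Panx3, Pth1r, Ihh and Ibsp the difference was 0.97, 0.80, 0.27, −0.43 and −0.68, beside a median of 0.23 for all genes. Each of these differences rests on 4 libraries and was not tested.

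**Figure D3:**
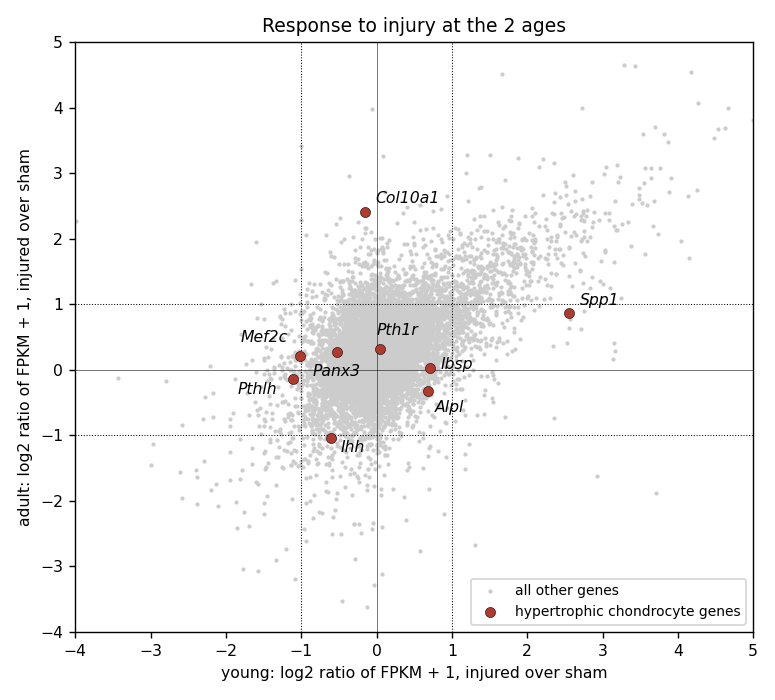
Log2 ratio of FPKM + 1, injured over sham, in young (x axis) and adult cartilage (y axis) for the 9 genes (red) and all other genes with at least 1 FPKM (grey); dotted lines mark 2-fold, and 16 of 13209 genes lie outside the axes. Col10a1 lies near 0 in the young and at 2.41 in the adult, Spp1 at 2.56 in the young and 0.86 in the adult.

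Scaling bore on the members unequally. Under the 5 scalings, which were the deposited FPKM, TPM, median-of-ratios, quantile normalization and division by the geometric mean of the chondrocyte list, Col10a1 after adult injury and Spp1 after young injury were past 2-fold in all 5. Ihh, Alpl, Ibsp and Spp1 were past 2-fold in all 5 in adult against young sham cartilage, and Col10a1 joined them between the injured libraries. Pthlh after young injury was past 2-fold in 4 of 5 and Mef2c in 3 of 5. The sign of the log2 ratio changed over the 5 scalings in 2 members for young injury, in 4 for adult injury, in 3 between the shams and in 2 between the injured libraries. Counts over the gene lists moved too. With median-of-ratios scaling 0 of 12 genes below the Pthlh receptor, 0 of the other 2 pannexins and 3 of 17 bone cell genes were at least 2-fold higher after adult injury, and 1 of the 8 repressors of hypertrophy was lower. Between the shams 0 of those 12 and 0 of those 8 were lower with it, and 7 of the 18 late genes were higher.

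**Figure D4:**
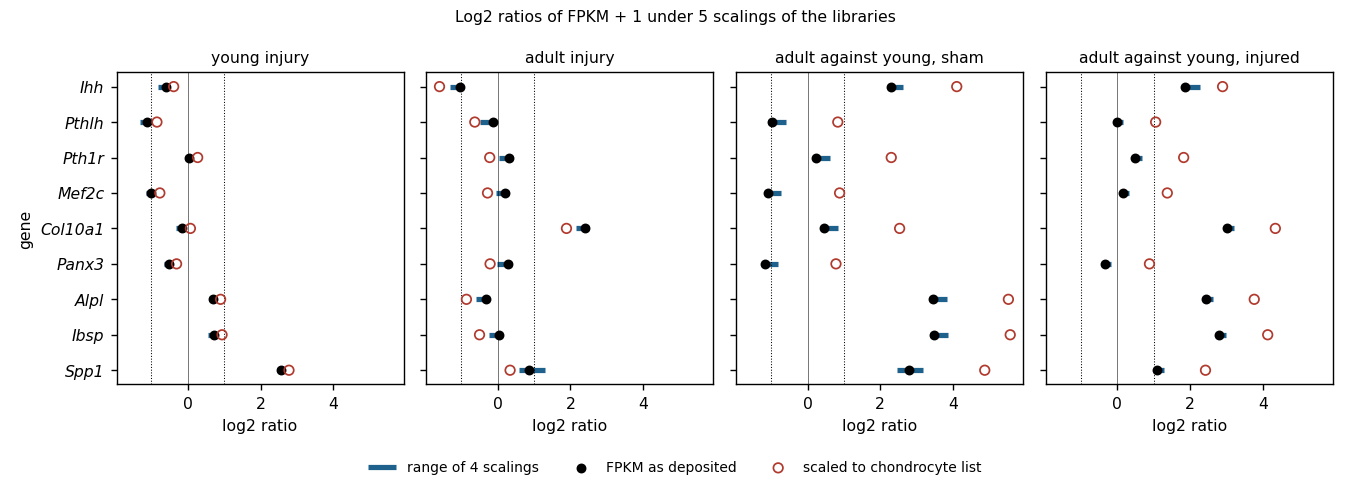
Log2 ratio of FPKM + 1 of each gene in the 4 comparisons; black points are the deposited FPKM, blue lines the range over 4 scalings including it, open red circles the values after scaling to the chondrocyte list, and dotted lines mark 2-fold. Red circles lie far to the right in both comparisons between the ages, at 5.52 for Alpl and 4.34 for Col10a1 in sham and injured cartilage respectively.

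Ratios between genes of a library do not depend on any scaling by 1 factor per library, though quantile normalization can change them. Over the 4 libraries the ratio of Alpl to Ibsp varied 1.31-fold, that of Pth1r to Pthlh 3.65-fold, of Spp1 to Ibsp 5.87-fold, of Col10a1 to Ibsp 8.26-fold and of Ihh to Pthlh 14.2-fold. Against Col2a1, whose own level was 9349 FPKM in young sham and 3173 FPKM in adult sham cartilage, Ibsp varied 33.0-fold and Col10a1 18.0-fold. Ibsp was below Col2a1 in both young libraries, with ratios of 0.0395 and 0.0765, and above it in both adult ones, with 1.30 and 1.12. Against aggrecan (Acan), the main proteoglycan of cartilage, Col10a1 stood at 0.834, 0.620, 2.14 and 4.38.

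**Figure D5:**
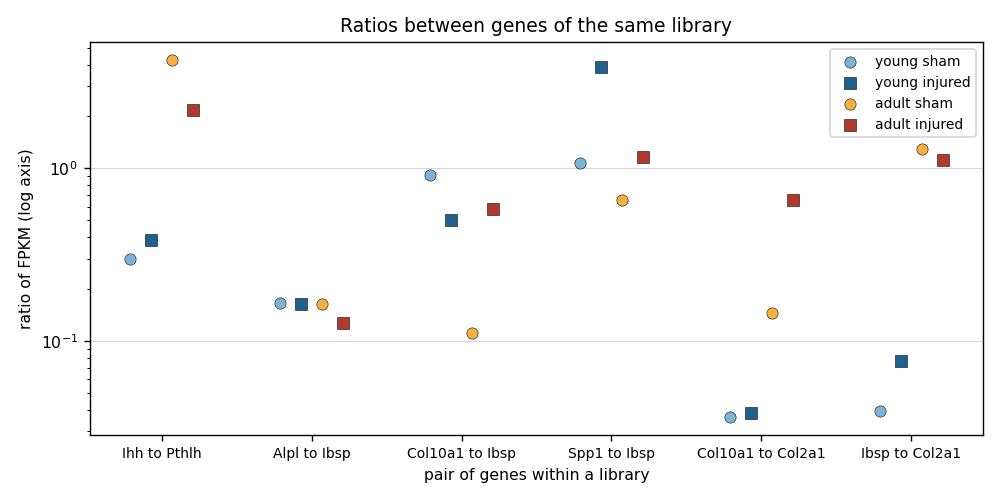
Ratio of FPKM between pairs of genes of the same library (log axis), with 1 point per library; circles are sham and squares injured, blue young and orange or red adult cartilage. The 4 points of Alpl to Ibsp lie between 0.127 and 0.166, whereas those of Ihh to Pthlh separate by age.

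The genes most like each member over the 4 libraries were sought among 8054 genes that averaged 5 FPKM or more, by the root mean square difference of centred log2 values of FPKM + 1. This was done for the 5 members that spanned 2 or more on the log2 scale, and with 4 libraries many profiles resemble each other. Nearest to Spp1 was the lipid transfer protein gene Pltp (5.59, 38.0, 45.1 and 77.5 FPKM, a difference of 0.04), followed by the matrix genes Fbln2 (0.17) and Ecm1 (0.22). Nearest to Alpl and to Ibsp was Sod3, the extracellular superoxide dismutase, at 25.9, 39.8, 315 and 244 FPKM, with differences of 0.07 and 0.15, and Alpl and Ibsp were each other's second neighbour at 0.16. Their next neighbours were Chst1 for Alpl (0.27) and Slc6a12 for Ibsp (0.23). Ihh was nearest to Il34 (1.88, 1.08, 12.1 and 6.38 FPKM, 0.10), then to Ccdc3 (0.13) and Mfi2 (0.16). Col10a1 had no neighbour as close, with Ier3 (6.49, 12.1, 9.99 and 44.3 FPKM) and Has1 at 0.46 and Lbp at 0.50.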

How the data were processed

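Total RNA of pooled cartilage was made into strand-specific poly-A libraries and sequenced in pairs, 1 library for each of 4 groups. The authors deposited FPKM per gene, calculated on mm10. The submitters' processing notes name HISAT, HISAT2 2.1.0, StringTie 1.3.4d, STAR and SAMtools, without saying which made the values. The table had 0 columns of samples outside these groups. Here the 9 genes were taken by symbol, and log2 ratios of FPKM + 1 were calculated for 4 comparisons, with a threshold of 2-fold. With 1 library per group no test was run. Shares of all genes were taken over those with at least 1 FPKM in either library.

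The members, the 17 gene lists, the within-library pairs and the threshold were chosen with earlier results of these data known. The values of 2 listed genes are not reported here, and the counts leave them out. From each list the most abundant gene and up to 3 genes with the largest ratios at 5 FPKM or more were named, all genes of the hedgehog, pannexin and acidic matrix protein lists could be named, and Col2a1, Acan and other partners in ratios were added for those ratios. Calcr, Hbb-b1, Foxa3 and other genes outside this rule, such as those behind counts of 5 or fewer, were named after their values were seen. Start sites, coordinates and sequences were read from RefSeq tables of GRCm38.p6. Depth was estimated from the steps of the lowest FPKM of 17546 genes with 1 transcript. If 1 step is 1 fragment, the libraries held 26400000, 26300000, 30900000 and 25900000 fragments (young sham, young injured, adult sham, adult injured), but whole reads were not recovered. Alternatives were pseudocounts of 0.1 and 5 FPKM, TPM, median-of-ratios scaling, quantile normalization, scaling to the chondrocyte list, thresholds of 1.5-fold and 3-fold, and no filter. The scripts were tested on simulated data. Python 3.11.15, numpy 2.4.6, pandas 2.3.3 and matplotlib 3.10.9 were used.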

Additional observations from a re-analysis of the deposited data

Results flagged for a closer look

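In 4 of the 9 genes injury was followed by opposite signs of the log2 ratio in young and adult cartilage. The adult ratio minus the young ratio was 2.57 for Col10a1 (2.41 against −0.16), −1.01 for Alpl (−0.33 against 0.68), 1.23 for Mef2c (0.21 against −1.02) and 0.80 for Panx3 (0.27 against −0.53). Of 13209 genes 42.6% had opposite signs, and with 1 library per group these differences were not tested. The signs of the young ratio of Col10a1 and of the adult ratios of Mef2c and Panx3 changed under at least 1 other scaling, and those of Alpl did not.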

How the results depend on the processing

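Of 216 single-gene log2 ratios under other settings, 196 moved little, and 2 that had been past 2-fold changed sign, besides smaller ratios whose sign turned as given with the scalings, and of 60 counts and medians over the 9 genes 50 moved little. The number of members at 2-fold after young injury, 3, became 1 with a pseudocount of 5 FPKM, after scaling to the chondrocyte list or at 3-fold, and 6 at 1.5-fold. After adult injury it was 2, and 1 with a pseudocount of 5 FPKM, with TPM or at 3-fold. Scaling to the chondrocyte list, of which 10 of 14 genes were lower and 2 higher in adult than in young sham cartilage, raised the number between the injured libraries from 5 to 8 and the member medians of adult against young cartilage from 0.44 to 2.53 (sham) and from 1.08 to 2.42 (injured). It reversed Panx3 to 0.78 and Mef2c to 0.88 between the shams, as well as the medians of the chondrocyte list (0.42) and of the erythroid list (0.09). Medians of the hedgehog, transcription factor and repressor lists and of the genes below the Pthlh receptor, negative as deposited, turned upward too. In the chondrocyte list Matn1 and Matn3 had the largest log2 ratios between the shams, −8.83 and −6.90, and the scaling was not tried without them. Scaling to the chondrocyte list turned the member median after young injury from −0.16 to 0.07. The median after adult injury, 0.21, turned to −0.04 with median-of-ratios scaling, −0.02 with quantile normalization and −0.28 with the chondrocyte list. The number between the shams was 4 to 7 over the settings. Without a filter on low values, 4.57% of genes were at least 2-fold higher after young and 6.90% after adult injury. No paired analysis was possible because each group is 1 library, and leaving a library out would end its comparisons. The pools give no estimate of the spread between mice, ages are given differently in the labels and methods, and depth is known only conditionally, so small ratios such as those of Pth1r and low values such as those of Ihh cannot be told from library differences.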
